A study of Mus musculus with 12 samples.

Results

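The genes described here are 10 members of the NF-κB system: the 5 subunits Nfkb1, Rela, Rel, Nfkb2 and Relb, the inhibitors Nfkbia and Nfkbie, the nuclear regulators Bcl3 and Nfkbiz, and the upstream brake Tnfaip3. They were taken by symbol from a table of read counts for 55216 genes, and all 10 passed the filter on low counts that 13177 genes passed. The cells were Myc-CaP, a mouse prostate cancer line that overexpresses Myc, and their RNA was sequenced. There were 6 groups with 2 libraries in each, all collected at 48 h: untreated cells (Ctrl), cells given interferon γ at 200 pg (IFN200) or 2000 pg (IFN2000), cells given the DNA-crosslinking platinum drug oxaliplatin at 2 μM (Oxali), and cells given oxaliplatin with either dose of interferon γ (Combo200, Combo2000). The interferon doses carry no volume in the labels, the samples are of 1 cell line, and nothing states that libraries of a group came from separate cultures, so p-values measure the spread between these libraries, which may be technical.

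Groups follow the sample titles, and a second label contradicts the titles of 6 libraries. The libraries titled IFN200 name Oxali as their agent, those titled IFN2000 name interferon γ at 200 pg, and those titled Oxali name interferon γ at 2000 pg, while Ctrl and both combinations carry matching labels. Gbp2, an interferon-induced GTPase, measured 1.00 and 0.912 CPM (counts scaled to a common library size, corrected for composition) for Ctrl, 3.30 and 2.25 for IFN200, 30.6 and 30.8 for IFN2000, and 3.36 and 2.86 for Oxali. It measured 57.4 and 63.2 CPM in Combo200 and 286 and 293 CPM in Combo2000. Irf1, an interferon-induced transcription factor, averaged 37.8 CPM (SD 1.14, n = 2) for Ctrl, 45.0 (3.02) for IFN200, 94.2 (0.456) for IFN2000, 95.2 (1.54) for Oxali, 256 (3.15) for Combo200 and 439 (9.26) for Combo2000. By edgeR, 15 genes differed between the libraries titled IFN200 and Ctrl and 8911 between those titled Oxali and Ctrl, and Combo200 differed from the libraries titled Oxali in 241 genes and from those titled IFN200 in 9217. Under the agent labels the names of the single treatments would trade places in each result that uses them, whereas comparisons of a combination with Ctrl would stand as written.

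NF-κB transcription factors are dimers of Rel-family proteins that IκB proteins such as the products of Nfkbia and Nfkbie hold in the cytoplasm. In the canonical arm, inflammatory receptors activate an IKK complex that destroys IκB and frees dimers of the Nfkb1 product with Rela or Rel. In the noncanonical arm, the kinase encoded by Map3k14 and the IKK subunit encoded by Chuk drive processing of the Nfkb2 precursor, whose product pairs with Relb. Several inhibitors and subunits are themselves NF-κB target genes, which gives the system its known feedback.

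Library totals ran from 18749975 to 25931516 counts, so 3 counts, the limit that a count of 0 allows, correspond to 0.111 to 0.167 CPM (counting error only). Of the prostate luminal markers given here, Krt8 and Hoxb13 were above 3 counts in every library, whereas Epcam had 0 counts in all 12 and Krt18 and Cdh1 did not exceed 5 and 6 counts. IFN2000 replicate 2 stood apart in genes of blood cells. It held 64 counts of Ptprc, the pan-leukocyte phosphatase, and 33 of Cd4, where the other 11 libraries held at most 2 and 1. The summed level of 9 T cell markers was 7.28 CPM there and 0.536 CPM in its partner, against 0.668 to 0.709 in Ctrl, 2.19 to 2.63 in Oxali and 2.22 to 2.94 in the combinations, with Cd8a at 0 in all libraries. The 6 macrophage markers summed to 3.68 CPM in IFN2000 replicate 2 and to at most 2.27 CPM elsewhere, with Adgre1 and Itgam at 0 in all libraries. Heart muscle markers summed to 7.16 CPM in IFN200 replicate 1, to at most 1.27 CPM in Ctrl and to 4.34 and 5.94 CPM in Oxali, B cell markers did not exceed 0.0507 CPM in any library, and fibroblast markers, nearly all from Pdgfra, ran from 9.95 CPM in IFN2000 to 25.6 CPM in Oxali. The part of these transcripts in the results below was not tested, and calls of the members in IFN2000 are given with and without replicate 2.

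In untreated cells the order of levels could be read after division by exon length, with all annotated exons of a gene merged. That length was 12061 bases for Nfkb1 and 4584 for Nfkb2. Nfkbia stood highest, at 36.5 ± 0.312 CPM per kb of exon (SD, n = 2), followed by Rela at 29.8 ± 0.772. Nfkb1 and Nfkb2 measured 10.2 ± 0.0166 and 10.2 ± 0.0907 CPM per kb, and their libraries overlapped. Before the division they stood at 123 and 46.6 CPM, so their match rests on the merged lengths. Tnfaip3 (7.57 ± 0.0370), Bcl3 (6.79 ± 0.477), Rel (4.57 ± 0.437) and Nfkbiz (2.75 ± 0.162) came next on the same scale. Relb at 1.05 ± 0.0945 and Nfkbie at 0.479 ± 0.00537 CPM per kb were the lowest. On this scale the noncanonical pair thus joined a subunit level with Nfkb1 to one that was near the bottom. Neighbours in this order other than Nfkb1 and Nfkb2 did not overlap between libraries.

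**Figure D1:**
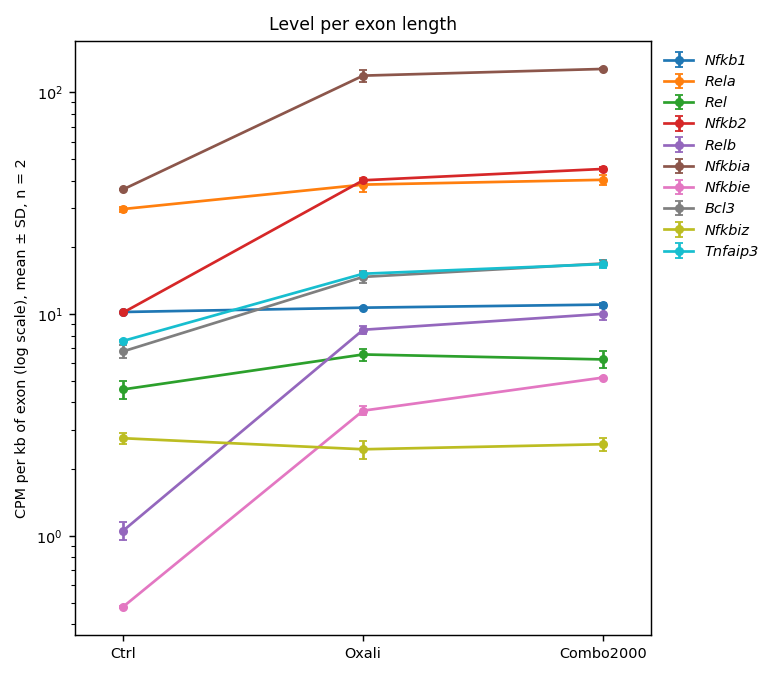
Level of the 10 genes in Ctrl, Oxali and Combo2000, in CPM per kb of exon on a log axis; points are means and bars the SD over 2 libraries. On this scale, with annotated exons merged, Nfkb2 and Nfkb1 share a level of 10.2 in Ctrl and part to 40.1 and 10.7 in Oxali. Relb climbs from 1.05 to 8.49 and passes Rel on the same scale.

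The first comparison asked how low-dose Oxali changes the mRNA of the subunits of the 2 arms. Processing of the Nfkb2 precursor and the activity of either arm were not measured. Oxali raised both noncanonical subunits severalfold and 2 of the 3 canonical ones by 1.29- and 1.44-fold. It also raised both cytoplasmic IκB genes, Bcl3 and Tnfaip3, and left Nfkb1 and Nfkbiz without a call. In all, 8 of 10 members were higher than in Ctrl and none was lower (edgeR quasi-likelihood test, Benjamini-Hochberg adjusted p under 0.05; the 8 are also the number at an unadjusted p under 0.05, and DESeq2 called 8 higher and 0 lower). Among all genes tested 34.8% were called higher and 32.8% lower. Medians of the log2 fold change were 1.06 over the members and 0.02 over all genes tested. In bulk RNA a shift in the share of cells that express a gene and a shift in RNA per cell cannot be told apart.

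Nfkb2 lies on chromosome 19 (46304320 to 46312385, plus strand, GRCm38) and encodes the precursor that noncanonical signalling processes. Its level was 46.3 and 46.9 CPM for Ctrl, 45.7 and 44.0 for IFN200, 49.3 and 45.8 for IFN2000, 183 and 184 for Oxali, 195 and 192 for Combo200 and 210.1 and 203 for Combo2000. Each of the 6 libraries titled with Oxali was above each of the other 6. For this split, here and for the genes below, the share over all genes was not counted. Of all genes tested 34.8% were called higher in Oxali against Ctrl. The log2 fold change in Oxali against Ctrl was 1.98 (SE 0.05, 3.95-fold, adjusted p 2.57e-17), and over 12 other settings it ran from 1.82 to 2.03. Exons of Nfkb2 share 299 bases with those of Psd on the opposite strand, and whether counting used the strand was not stated; Psd measured 7.73 and 8.01 CPM in Ctrl and 37.6 and 34.8 CPM in Oxali, so it moved the same way at a lower level, and its part in the Nfkb2 value was not tested.

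Relb, on chromosome 7 (19606217 to 19629438, minus strand), encodes the partner of the processed Nfkb2 product. It measured 3.84 and 4.36 CPM for Ctrl, 3.56 and 3.58 for IFN200, 4.88 and 3.26 for IFN2000, 32.0 and 34.0 for Oxali, 43.1 and 38.4 for Combo200 and 40.6 and 37.2 for Combo2000. Again no library with Oxali in its title overlapped one without. The change in Oxali was 3.00 on the log2 scale (SE 0.12, 8.02-fold, adjusted p 5.46e-14), which its error does not separate from that of Nfkbie given below.

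Of the canonical subunits, Rela (chromosome 19, 5637483 to 5648130, plus strand) measured 89.7 and 93.1 CPM in Ctrl and 124 and 112 CPM in Oxali. Rel (chromosome 11, 23736847 to 23770970, minus strand), the subunit best known from lymphocytes, measured 31.8 and 36.4 CPM in Ctrl and 51.3 and 46.9 CPM in Oxali. Both Oxali libraries were above both Ctrl libraries for each gene, and the log2 fold changes were 0.37 (SE 0.05, 1.29-fold, adjusted p 2.89e-06) for Rela and 0.52 (SE 0.07, 1.44-fold, adjusted p 2.96e-06) for Rel. Nfkb1 (chromosome 3, 135584655 to 135691547, minus strand) measured 123 and 123 CPM in Ctrl and 128 and 129 CPM in Oxali. Its log2 fold change of 0.06 (95% confidence interval -0.02 to 0.14, adjusted p 0.143) was not called, although upper-quartile scaling and a filter at a mean of 50 counts gave 0.12 and 0.08 with adjusted p 0.0108 and 0.0448.

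The subunit mRNAs of the arms were set against each other within each library, which removes the library's scaling. Per kb of exon, Nfkb2 stood at 0.938 to 1.09 times Nfkb1 in the 6 libraries titled without Oxali and at 3.75 to 4.10 times in the 6 with it. The merged exon lengths set the level of such ratios but cancel between libraries. Relb stood at 0.0304 to 0.0435 times Rela without Oxali and at 0.205 to 0.278 times with it, and at 0.187 to 0.337 times Rel without and 1.20 to 1.73 times with it. The highest of the Relb ratios without Oxali belonged to IFN2000 replicate 2, the library with blood cell transcripts; in its partner the ratios were 0.0304 and 0.207. The smallest gap between a noncanonical and a canonical subunit in Oxali against Ctrl was that of Nfkb2 over Rel, a difference in log2 fold change of 1.46 (combined SE 0.09, covariance between genes left out), and the widest was that of Relb over Nfkb1, at 2.94 (combined SE 0.13).

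**Figure D2:**
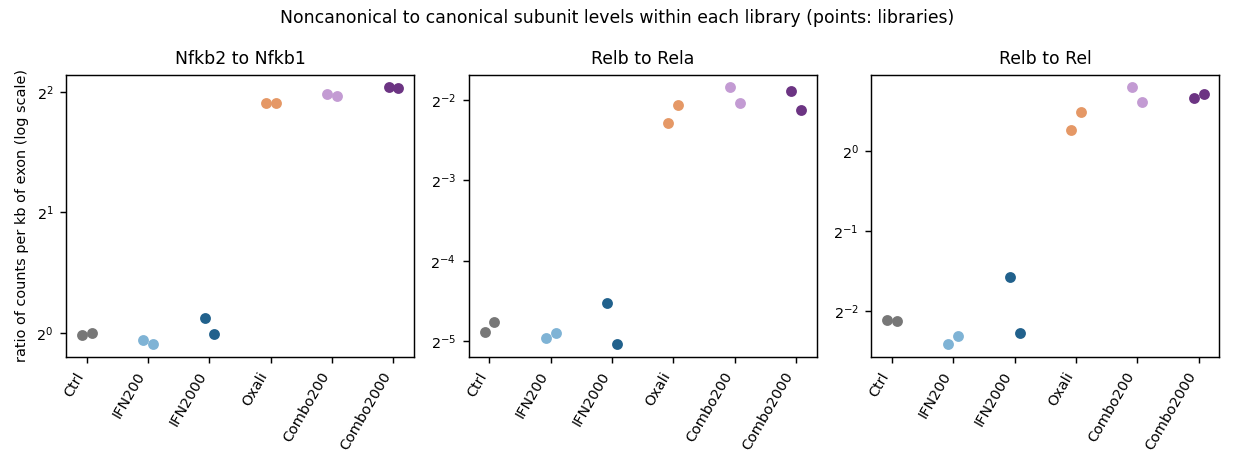
Ratio of a noncanonical to a canonical subunit within each library, in counts per kb of exon on a log axis, with 1 point per library. All 6 libraries titled with Oxali lie above all 6 without in each panel; for Nfkb2 to Nfkb1 the ranges are 3.75 to 4.10 and 0.938 to 1.09.

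The inhibitors rose together with the noncanonical subunits. Nfkbia, on chromosome 12 (55489410 to 55492647, minus strand), measured 59.1 and 58.4 CPM for Ctrl, 55.0 and 54.6 for IFN200, 59.9 and 60.9 for IFN2000, 199.8 and 183 for Oxali, 205 and 205 for Combo200 and 207 and 203 for Combo2000. Nfkbie, on chromosome 17 (45555703 to 45563169, plus strand), measured 1.45 and 1.47 CPM for Ctrl, 1.69 and 1.50 for IFN200, 1.54 and 1.61 for IFN2000, 10.8 and 11.5 for Oxali, 14.96 and 14.3 for Combo200 and 15.7 and 15.8 for Combo2000. Both genes split the libraries by the presence of Oxali in the title without overlap. In Oxali against Ctrl the log2 fold change of Nfkbia was 1.70 (SE 0.05, 3.26-fold, adjusted p 1.58e-16) and that of Nfkbie 2.93 (SE 0.14, 7.63-fold, adjusted p 6.38e-13). Per kb of exon Nfkbia went from 1.19 to 1.37 times Rela in the libraries without Oxali to 3.03 to 3.31 times in those with it.

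Tnfaip3 (chromosome 10, 19000910 to 19015657, minus strand) encodes a ubiquitin-editing enzyme that restrains signalling above IKK. It measured 54.9 and 54.5 CPM in Ctrl and 110.1 and 109.6 CPM in Oxali, a change of 1.01 on the log2 scale (SE 0.05, 2.01-fold, adjusted p 8.06e-13). Bcl3 and Nfkbiz encode atypical IκB proteins that act in the nucleus on NF-κB bound to DNA; Bcl3 was called and Nfkbiz was not. Bcl3 (chromosome 7, 19808462 to 19822770, minus strand) measured 16.0 and 17.6 CPM in Ctrl and 38.1 and 34.7 CPM in Oxali, a change of 1.11 on the log2 scale (SE 0.08, 2.16-fold, adjusted p 1.53e-10). Nfkbiz (chromosome 16, 55811375 to 55838899, minus strand) measured 13.2 and 14.4 CPM in Ctrl and 11.5 and 13.1 CPM in Oxali. Its log2 fold change of -0.17 (95% confidence interval -0.37 to 0.04, adjusted p 0.137) was not called; without Oxali replicate 2 it was -0.27 with adjusted p 0.0498.

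**Figure D3:**
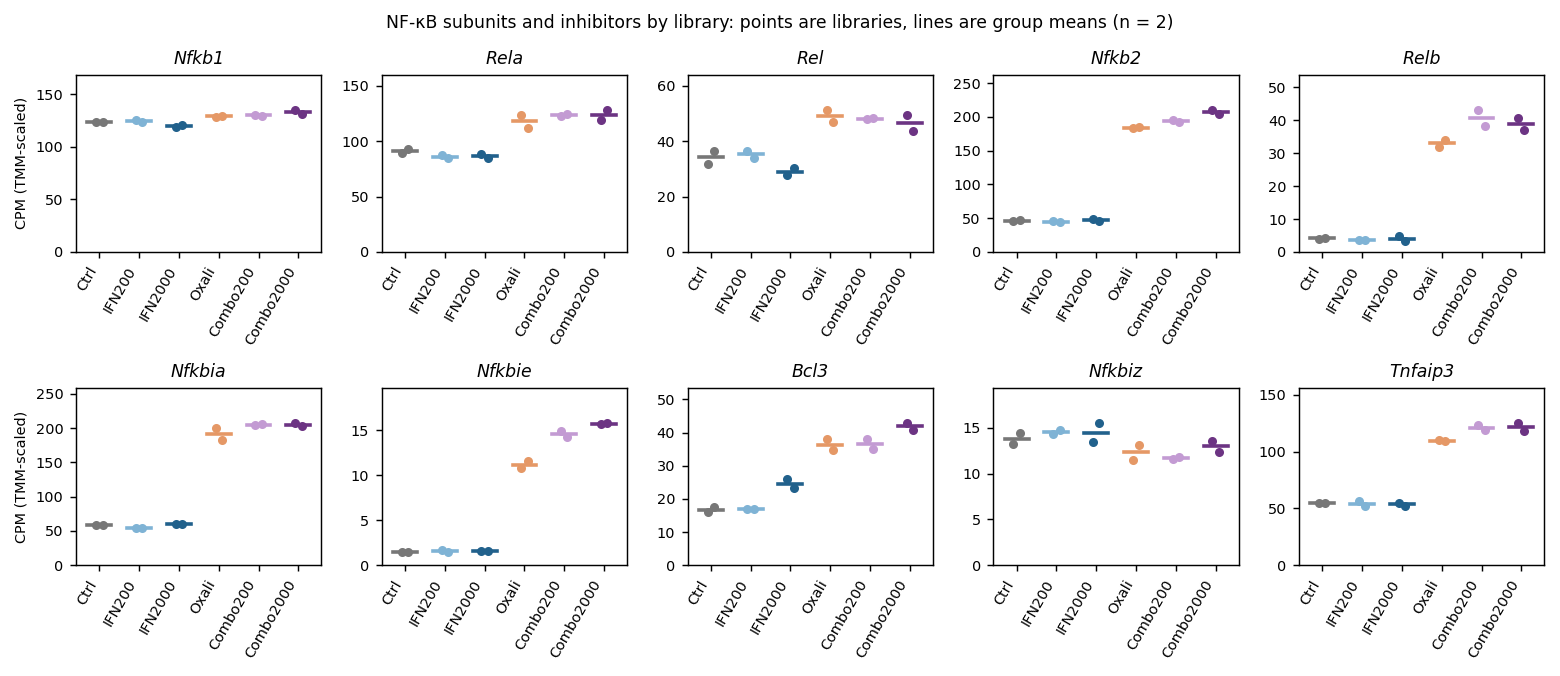
CPM of each gene in each library, with an axis from 0 in every panel; points are libraries and lines the mean of 2. Nfkb2, Relb, Nfkbia, Nfkbie and Tnfaip3 form a low set of 6 libraries and a high set of 6, split by Oxali in the title. Rela, Rel, Bcl3 and Nfkb1 split the same way, and Nfkbiz does not. Nfkb1 stays between 119 and 135 CPM, at most 125.05 without Oxali and at least 128 with it. How many of all genes split so was not counted.

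Because these genes rose together and several are known targets of NF-κB, their promoter windows were read. RefSeq windows of 300 bases (250 before and 50 from the start site on, GRCm38.p6) were at hand for 7 members; Nfkb1, Relb and Nfkbiz had no entry. The κB consensus, a motif of 10 bases searched on both strands with overlapping matches merged into 1 place, was found in 6 of the 7. Of all 32851 windows 8.5% held it, and of the 27025 genes with a window 9.6% did. The windows of Nfkb2, Nfkbia, Nfkbie and Rel are shown because each holds the motif while the genes differ in response, and that of Rela because it holds none. Capitals mark the κB matches.
Nfkb2, first of 3 windows, chr19:46304487-46304786 (plus strand, GRCm38.p6): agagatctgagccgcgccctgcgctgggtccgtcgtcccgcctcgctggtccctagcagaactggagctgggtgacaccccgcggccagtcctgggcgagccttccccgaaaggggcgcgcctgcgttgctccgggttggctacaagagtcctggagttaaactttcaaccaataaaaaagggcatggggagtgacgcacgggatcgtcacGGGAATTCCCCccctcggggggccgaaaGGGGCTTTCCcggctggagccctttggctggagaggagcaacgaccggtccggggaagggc
Nfkbia, chr12:55492598-55492897 (minus strand, GRCm38.p6): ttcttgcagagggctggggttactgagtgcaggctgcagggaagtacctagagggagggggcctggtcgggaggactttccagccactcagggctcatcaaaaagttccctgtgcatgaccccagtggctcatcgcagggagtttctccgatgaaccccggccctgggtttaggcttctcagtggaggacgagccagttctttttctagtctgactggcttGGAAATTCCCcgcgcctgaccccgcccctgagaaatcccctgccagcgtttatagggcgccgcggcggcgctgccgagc
Nfkbie, chr17:45555450-45555749 (plus strand, GRCm38.p6): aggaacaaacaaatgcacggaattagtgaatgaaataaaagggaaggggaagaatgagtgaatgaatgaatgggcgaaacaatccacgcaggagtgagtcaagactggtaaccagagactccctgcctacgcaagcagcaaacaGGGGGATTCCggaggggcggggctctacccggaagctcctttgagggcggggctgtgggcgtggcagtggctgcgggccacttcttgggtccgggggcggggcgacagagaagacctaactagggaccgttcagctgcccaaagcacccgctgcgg
Rel, chr11:23770920-23771219 (minus strand, GRCm38.p6): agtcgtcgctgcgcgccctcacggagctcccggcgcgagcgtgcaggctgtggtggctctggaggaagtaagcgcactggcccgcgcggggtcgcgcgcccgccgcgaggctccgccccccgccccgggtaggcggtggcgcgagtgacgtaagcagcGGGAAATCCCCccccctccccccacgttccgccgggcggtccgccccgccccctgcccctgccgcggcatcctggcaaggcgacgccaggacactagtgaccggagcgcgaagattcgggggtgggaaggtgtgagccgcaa
Rela, chr19:5637291-5637590 (plus strand, GRCm38.p6): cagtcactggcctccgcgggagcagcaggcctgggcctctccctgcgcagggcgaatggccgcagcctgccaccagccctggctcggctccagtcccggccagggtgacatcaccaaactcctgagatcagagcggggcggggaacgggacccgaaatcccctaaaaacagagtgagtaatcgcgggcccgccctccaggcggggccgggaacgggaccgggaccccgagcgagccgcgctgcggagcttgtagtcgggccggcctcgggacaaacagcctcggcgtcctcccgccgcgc

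Counted from the start site, the matches began at -39 and -11 in the first Nfkb2 window, at -29 in Nfkbia, at -106 in Nfkbie and at -92 in Rel. Bcl3 held a match from 2 to 11 bases past the start and the upstream one of 2 Tnfaip3 windows held matches from -125 and -12. Matches were thus found both in Nfkb2, which rose 3.95-fold, and in Rel, which rose 1.44-fold, and Rela, without a match, rose 1.29-fold. The interferon γ element bound by STAT proteins, GAS (TTCNNNGAA, a pattern that is its own reverse complement), occurred in 1 of the 7 genes, Nfkb2, from -148 to -140, against 9.6% of all genes with a window. A match is a string of letters and not a measured site.

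With interferon γ alone, the counts of members called were near the share over all genes. IFN200 against Ctrl gave 0 calls among the 10 genes, by edgeR and by DESeq2, with 0 at an unadjusted p under 0.05, where 0.114% of all genes were called higher and 0% lower (801 genes had an unadjusted p under 0.05). The median log2 fold change of the members was -0.00062, beside -0.00046 over all genes. No member was called with either IFN200 library left out, replicate 1 with its heart muscle transcripts included. For Nfkb2 and Nfkbia the 95% confidence intervals of the log2 change were -0.16 to 0.05 and -0.21 to 0.002, and for Relb the interval was wider, from -0.60 to 0.20.

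In IFN2000 against Ctrl 1 member was called higher and 1 lower, beside 8.39% and 8.47% of all genes. The median log2 fold change was 0.01 over the members and 0.00052 over all genes. Bcl3 was the one that rose, from 16.0 and 17.6 CPM in Ctrl to 26.0 and 23.2 CPM in IFN2000, while IFN200 stayed at 16.9 and 17.1 CPM. Both IFN2000 libraries were above all 4 of the others. The log2 fold change was 0.55 (SE 0.08, 1.46-fold, adjusted p 0.000158), and it was called under all 12 other settings, with values from 0.47, which is that without IFN2000 replicate 2, to 0.65. With log2 ratios corrected for transcript length and GC content it was 0.54.

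Rel was the one called lower, with 27.8 and 30.3 CPM in IFN2000 against 31.8 and 36.4 in Ctrl, a change of -0.24 on the log2 scale (SE 0.08, adjusted p 0.0436). The call did not hold under 8 of 12 other settings, among them the length and GC correction (-0.20, adjusted p 0.0721), DESeq2 (adjusted p 0.0959), and the fits without IFN2000 replicate 2 (-0.17, adjusted p 0.307), without Ctrl replicate 1 (adjusted p 0.0545) and without Ctrl replicate 2 (-0.12, adjusted p 0.485). The noncanonical subunits showed log2 fold changes of 0.03 (95% confidence interval -0.07 to 0.14) for Nfkb2 and -0.01 (-0.40 to 0.38) for Relb, neither called; without replicate 2 they were -0.02 and -0.33, also not called. Relb was 4.88 CPM in replicate 2 and 3.26 CPM in replicate 3 of IFN2000, which straddled both Ctrl libraries.

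The step from IFN200 to IFN2000 gave 3 calls, with 11.3% of all genes called higher and 11.0% lower. Median changes on the log2 scale were -6.04e-05 over the members and 0.0023 over all genes. Bcl3 was higher in IFN2000 by 0.53 (SE 0.08, adjusted p 0.000117) on the log2 scale. Nfkbia was higher by 0.14 (SE 0.05, adjusted p 0.0426), a call lost in 9 of 12 other settings, and Rel was lower, at -0.28 (SE 0.08, adjusted p 0.0115). Without IFN2000 replicate 2 Rel stood at -0.22 (adjusted p 0.133) and Nfkbia at 0.16 (adjusted p 0.0936), both no longer called, as they were without IFN200 replicate 1 (Rel -0.22, adjusted p 0.163; Nfkbia 0.16, adjusted p 0.116). Bcl3 was called without IFN2000 replicate 2, and Nfkb2 reached 0.15 with adjusted p 0.0478 without IFN2000 replicate 3.

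The combinations were then compared with Ctrl, the comparison that does not rest on the contradicted labels. Combo200 had 8 members higher and 1 lower, beside 35.6% and 33.1% of all genes, and Combo2000 had 9 higher and 0 lower, beside 35.7% and 33.5%. The median log2 fold changes of the members were 1.13 and 1.23, where both medians over all genes were 0.02. Nfkb2 rose by 2.06 (SE 0.05) in Combo200 and 2.15 (SE 0.05) in Combo2000 on the log2 scale, Relb by 3.31 (SE 0.12) and 3.24 (SE 0.12), and Nfkbie by 3.32 (SE 0.13) and 3.43 (SE 0.13). Rela rose by 0.43 (SE 0.05) and 0.44 (SE 0.05) and Rel by 0.49 (SE 0.07) and 0.45 (SE 0.07), so these canonical subunits changed by 1.35- to 1.41-fold. Nfkbiz was called lower in Combo200 (-0.24, SE 0.10, adjusted p 0.0332), with 11.6 and 11.8 CPM against 13.2 and 14.4 in Ctrl. That call was lost with upper-quartile scaling (adjusted p 0.0660), with DESeq2 (adjusted p 0.0940) and without Ctrl replicate 2 (adjusted p 0.204) or either Combo200 library (adjusted p 0.112 and 0.0674). Nfkb1 was called higher in Combo2000 (0.11, SE 0.04, adjusted p 0.0136), at 135 and 131 CPM against 123 and 123. That call was lost without a filter on low counts (adjusted p 0.0549), with DESeq2 (adjusted p 0.0599), and without Ctrl replicate 1 (adjusted p 0.0789), Ctrl replicate 2 (adjusted p 0.0579) or Combo2000 replicate 2 (adjusted p 0.123).

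Added to Oxali, interferon γ at 2000 pg raised the noncanonical subunit Nfkb2 and the inhibitor Nfkbie. Combo2000 against Oxali gave 2 calls, both higher, beside 3.37% of all genes higher and 0.987% lower. Nfkbie went from 10.8 and 11.5 CPM in Oxali to 15.7 and 15.8 CPM in Combo2000, a change of 0.50 on the log2 scale (SE 0.08, 1.41-fold, adjusted p 0.000542), which was called under all 12 other settings at 0.45 to 0.55. Nfkb2 went from 183 and 184 to 210.1 and 203 CPM, a change of 0.17 on the log2 scale (SE 0.04, 1.13-fold, adjusted p 0.0135). The Nfkb2 call was lost without Oxali replicate 1 (adjusted p 0.0939), without Oxali replicate 2 (adjusted p 0.0789) and without Combo2000 replicate 2 (adjusted p 0.147). Relb (0.24, 95% confidence interval 0.08 to 0.40, adjusted p 0.0998), Bcl3 (0.20, adjusted p 0.0913) and Tnfaip3 (0.15, adjusted p 0.0777) were not called. The median log2 fold change was 0.12 over the members and 0.0029 over all genes.

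Combo200 against Oxali gave 1 call, Nfkbie at 0.39 (SE 0.08, 1.31-fold, adjusted p 0.0131), beside 1.58% of all genes higher and 0.250% lower. The call was lost with DESeq2 (adjusted p 0.447), and without Oxali replicate 1 (adjusted p 0.112), Combo200 replicate 2 (adjusted p 0.113) or Combo200 replicate 3 (adjusted p 0.0611). Relb stood at 0.30 (SE 0.08, adjusted p 0.0503), not called by a small margin, and was called without a filter on low counts (adjusted p 0.000475), with only the groups compared (adjusted p 0.0130) and with the length and GC correction (adjusted p 0.0216). On the log2 scale the median change was 0.07 over the members and 0.0063 over all genes. Between Combo2000 and Combo200 no member was called by edgeR, with 2 at an unadjusted p under 0.05, beside 1.21% of all genes called higher and 0.167% lower; the largest difference was that of Bcl3, 0.20 (95% confidence interval 0.06 to 0.33), and the median was 0.02 over the members and -0.0018 over all genes.

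**Figure D4:**
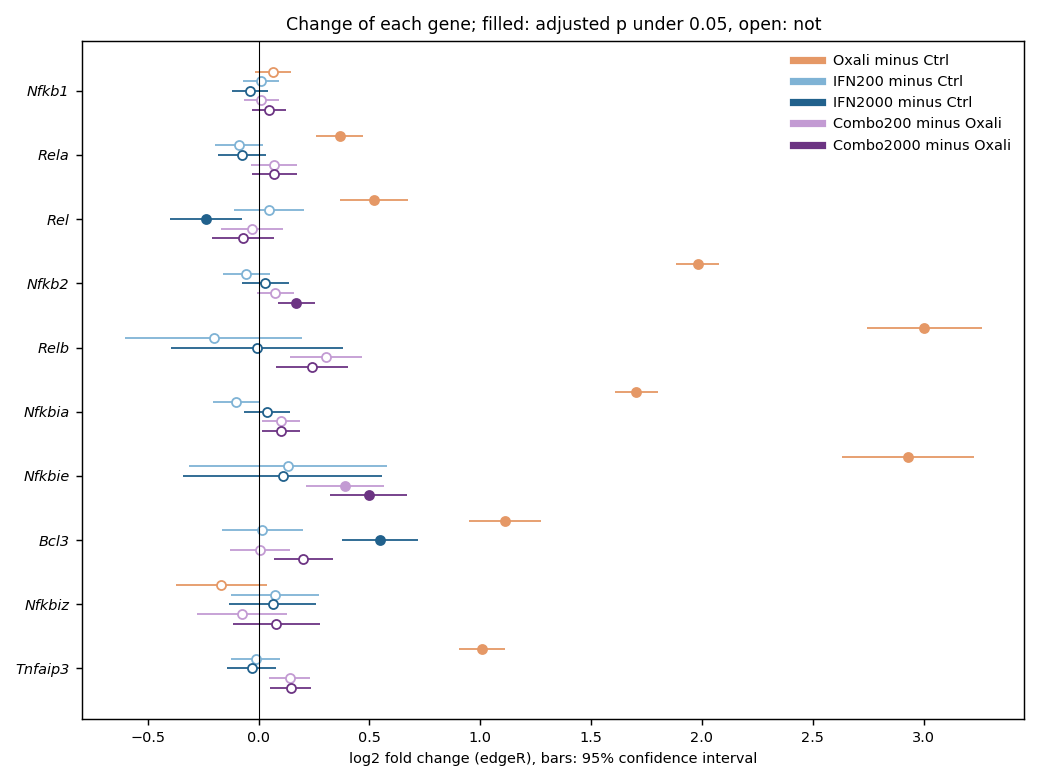
Log2 fold change of each gene in 5 comparisons, with bars for the 95% confidence interval of the edgeR fit and filled points for an adjusted p under 0.05. The Oxali points of Nfkb2, Relb, Nfkbia and Nfkbie lie at 1.70 to 3.00, the interferon points within -0.24 to 0.55, and Bcl3 is the one gene called higher in IFN2000.

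Oxali was also added to interferon γ. Combo200 against IFN200 gave 8 members higher and 1 lower, beside 36.5% and 33.5% of all genes, and Combo2000 against IFN2000 gave 9 higher and 0 lower, beside 38.5% and 33.8%. The members' medians were 1.13 and 0.97 on the log2 scale, with 0.02 and 0.03 over all genes. Nfkb2 rose by 2.11 (SE 0.04) with the lower dose present and 2.12 (SE 0.04) with the higher, and Relb by 3.51 (SE 0.12) and 3.25 (SE 0.11). Bcl3 rose by 1.10 (SE 0.07) and 0.77 (SE 0.07). Nfkbiz was the member called lower with the lower dose (-0.32, SE 0.09, adjusted p 0.00515). Nfkb1 was called higher with the higher dose (0.15, SE 0.04, adjusted p 0.00133), a call that was lost with the length and GC correction (0.07, adjusted p 0.0957). Without IFN2000 replicate 2 Nfkbiz was called lower with the higher dose too (-0.26, adjusted p 0.0353).

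Whether interferon γ acted differently with Oxali present was tested as an interaction, the change of Combo against Oxali minus the change of interferon γ against Ctrl. No member was called at either dose by edgeR or by DESeq2, with 4 at 200 pg and 3 at 2000 pg at an unadjusted p under 0.05. Of all genes 0.562% were called higher and 0.137% lower at 200 pg, and 2.12% higher and 0.600% lower at 2000 pg, where upper-quartile scaling moved the split of calls from 280 higher and 79 lower to 216 and 150, and at 200 pg from 74 and 18 to 57 and 24. The median over the members was 0.14 at both doses, beside 0.0092 and 0.0056 over all genes. Bcl3 had the lowest adjusted p at 2000 pg, with an interaction of -0.35 (95% confidence interval -0.56 to -0.13, adjusted p 0.0829). It was called without a filter on low counts (-0.33, adjusted p 0.0412) and without IFN2000 replicate 3 (-0.45, adjusted p 0.0126), and was -0.27 (adjusted p 0.316) without IFN2000 replicate 2. Nfkbia at 200 pg had an interaction of 0.20 (95% confidence interval 0.07 to 0.34, adjusted p 0.233) and was called without Oxali replicate 1 (0.27, adjusted p 0.0498). For Relb the intervals were wide, 0.08 to 0.94 at 200 pg and -0.17 to 0.67 at 2000 pg.

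The rest of the pathway was read from 8 lists with 95 genes, of which 78 passed the filter. The 78 include genes such as Tlr2, Tnfrsf13c, Vcam1 and Traf1, with at most 2 counts in their lowest library. Such genes could pass the filter only through libraries where they were high. Shares and medians of the lists that hold them are thus no free measure of direction. In Oxali against Ctrl 37 of the 78 were higher (47.4%) and 19 lower (24.4%), beside 34.8% and 32.8% of all genes, and their median change was 0.18 on the log2 scale. In IFN2000 against Ctrl 7 were higher and 5 lower (8.97% and 6.41%, median 0.02), beside 8.39% and 8.47% of all genes; without IFN2000 replicate 2 the counts were 3 and 5, and without replicate 3, with 81 genes tested, they were 16 and 9. In Combo2000 against Oxali 12 were higher (15.4%) and 0 lower by edgeR, with 2 lower at an unadjusted p under 0.05, beside 3.37% and 0.987% of all genes, and a median of 0.04.

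Map3k14 had the largest Oxali change in its own list. Among 5 tested genes of the noncanonical kinase complex 3 were higher and 1 lower, beside 34.8% and 32.8% of all genes. Map3k14, the kinase that triggers noncanonical processing, measured 17.0 and 16.2 CPM for Ctrl, 16.7 and 14.8 for IFN200, 16.9 and 15.9 for IFN2000, 46.1 and 46.1 for Oxali, 45.6 and 43.0 for Combo200 and 50.4 and 52.8 for Combo2000. It split the libraries by Oxali in the title, with a change of 1.48 on the log2 scale (SE 0.07, 2.78-fold, adjusted p 2.33e-13). Chuk, the IKK subunit that Map3k14 activates, fell from 98.1 and 100.5 to 81.8 and 82.0 CPM (-0.28, SE 0.04). Traf2 and Birc2, which mark the Map3k14 product for destruction, rose by 0.42 (SE 0.06) and 0.39 (SE 0.06). Traf2 and Birc2 also split the libraries upward by Oxali, and Chuk split them downward. How many of all genes split so was not counted.

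Of 22 canonical kinases and adaptors 9 were higher and 5 lower, with a median log2 fold change of -0.02. Beside these and the next 2 lists stand 34.8% of all genes higher and 32.8% lower. Ikbkb, the catalytic IKK subunit of the canonical arm, changed by 0.16 (SE 0.05, adjusted p 0.00408), a call held under 10 of 12 other settings, and Ikbkg, its regulatory partner, by 0.73 (SE 0.04), from 99.1 and 97.7 to 163 and 164 CPM. The IRAK-family member Irak2 and the adaptors Card10 and Traf5 rose by 1.64 (SE 0.18), 1.34 (SE 0.08) and 1.20 (SE 0.25). Among 15 other inhibitors 8 were higher and 4 lower. Cyld, a deubiquitinase that opposes IKK activation, rose by 0.95 (SE 0.04) from 68.8 and 69.7 to 130.1 and 137 CPM, the Tnfaip3 partners Tnip1 and Tnip2 rose by 0.64 (SE 0.05) and 0.61 (SE 0.08), and Nkiras2, a Ras-like protein that protects IκB, fell (-0.66, SE 0.08). The DNA damage route from the nucleus to IKK had 1 of 6 genes higher and 4 lower. Parp1 fell (-0.50, SE 0.04), as did the damage kinase Atm (-0.19, SE 0.07) and Pidd1 (-0.16, SE 0.06), while Erc1 rose by 0.17 (SE 0.05). The lower count ran from 1 to 4 under other settings, and Pidd1 was called in 3 of 12, Atm in 9 and Erc1 in 10.

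Receptors of both arms were called in either direction, where 34.8% of all genes were called higher and 32.8% lower. Of 3 tested noncanonical receptors, Tnfrsf12a, the TWEAK receptor, rose by 0.44 (SE 0.06), Ltbr, the lymphotoxin receptor, fell (-0.29, SE 0.04), and Tnfrsf13c was called higher at 2 to 38 counts a library. Cd40 had 0 counts in all 12 libraries. Of 8 canonical receptors 5 were higher and 2 lower, and the 8 include Tlr2, at 0 to 23 counts a library. Il1r1 and Il1rap, the 2 chains of the receptor for interleukin 1, rose by 0.97 (SE 0.10) and 0.96 (SE 0.08). Tnfrsf1b rose by 0.64 (SE 0.05), and Tnfrsf1a, the main TNF receptor, fell (-0.51, SE 0.04). Of 10 ligands 3 passed the filter, and Tnfsf12, the ligand of Tnfrsf12a, rose by 0.63 (SE 0.15) from 3.39 and 3.55 to 5.48 and 5.25 CPM. Tnf had 0 counts in 9 libraries, 5 and 1 counts in a Combo200 and a Combo2000 library, and 146 counts in IFN2000 replicate 2, the library that held Ptprc and Cd4 transcripts.

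Among 16 tested NF-κB target genes that are not members, 8 were higher in Oxali and 2 lower, beside 34.8% and 32.8% of all genes. Their median log2 fold change was 0.74. The 16 include Vcam1, Traf1, Nos2 and Tnfaip2, with 0 or 1 counts in their lowest library and 14 to 207 in their highest, a combination. These genes could pass the filter only through libraries where they were high, so the count and the median are no free measure of direction. Csf1, a macrophage growth factor, measured 15.8 and 16.6 CPM for Ctrl, 17.7 and 17.9 for IFN200, 25.5 and 27.9 for IFN2000, 86.1 and 92.2 for Oxali, 136 and 132 for Combo200 and 155 and 157 for Combo2000. It rose with both agents, by 2.46 (SE 0.06) in Oxali and 0.72 (SE 0.07, 0.79 without replicate 2) in IFN2000 against Ctrl, and by 0.80 (SE 0.04) in Combo2000 against Oxali. Icam1, an adhesion molecule, rose by 2.48 (SE 0.22) in Oxali and by 0.59 (SE 0.14, adjusted p 0.0128) from Oxali to Combo2000, the latter called in 7 of 12 other settings. Plau, the urokinase plasminogen activator, and Lcn2, a siderophore-binding protein, rose by 2.78 (SE 0.19) and 2.16 (SE 0.23) in Oxali. Ccl20 had 0 counts in all libraries, and Il6 and Ccl2 did not exceed 1 count in any.

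**Figure D5:**
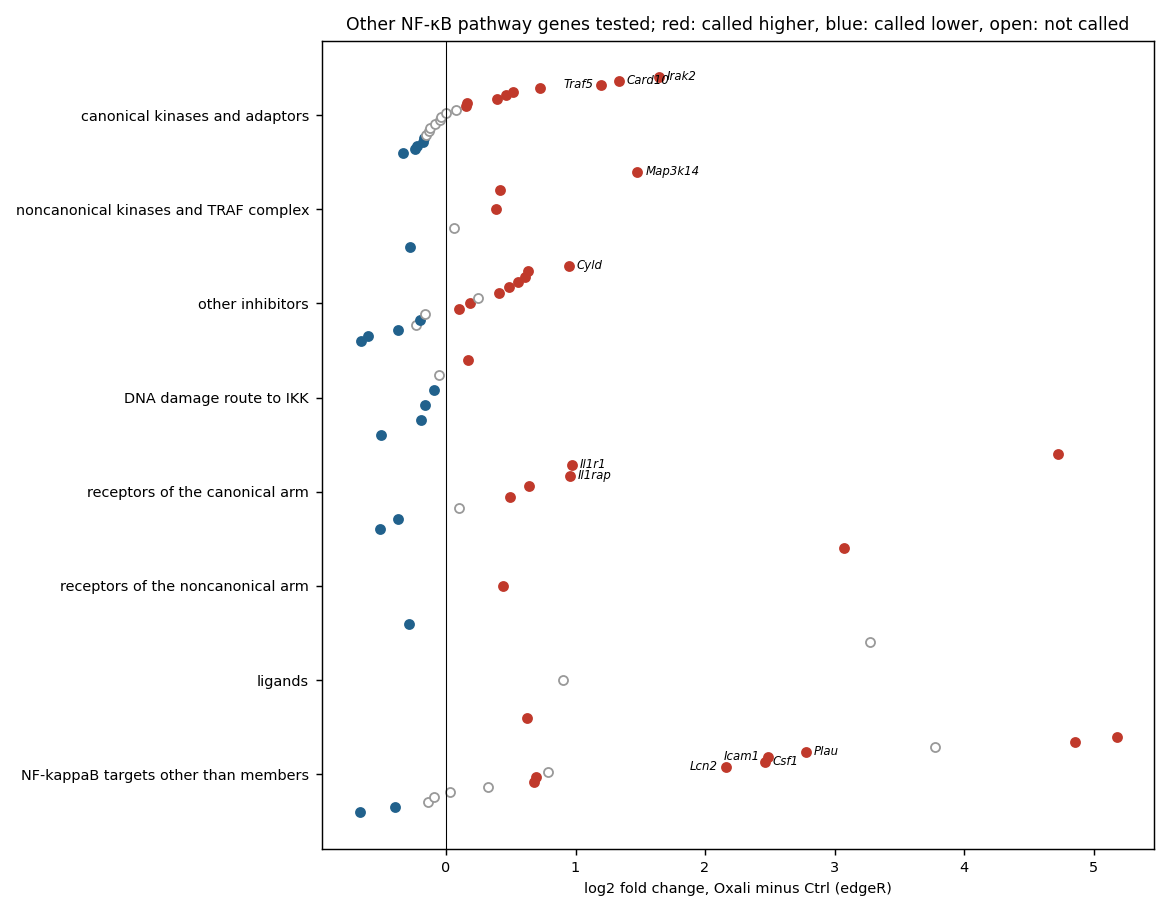
Log2 fold change in Oxali against Ctrl of the 78 tested genes of the 8 lists, 1 point per gene, red where called higher, blue where called lower and open where not called. Map3k14 at 1.48 stands apart in the noncanonical kinase row, and Csf1, Icam1, Plau and Lcn2 lie at 2.16 to 2.78 among the targets, while the 6 unlabelled points beyond 3 belong to genes with at most 2 counts in their lowest library.

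Genes whose log2 CPM followed a member most closely over the 12 libraries were sought among 10476 genes. They were Ecm1, Nfkbia and Hcfc1r1 for Nfkb2 (Pearson's r 0.9986, 0.9985 and 0.9985), and Csrp1, Hs1bp3 and Nfkb2 for Relb (0.9981, 0.9975 and 0.9972). For Nfkb1 they were Ptpn13, Gna13 and Uggt1 (0.9827, 0.9802 and 0.9775). The 12 points share the split by Oxali, so these values describe the groups and are not a test. Nfkb1 itself ran only from 119 to 135 CPM, and Ptpn13 measured 52.9 ± 2.66 CPM for Ctrl, 75.7 ± 0.160 for Oxali and 90.4 ± 4.76 for Combo2000 (SD, n = 2).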

How the data were processed

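For 12 libraries the deposited values were unnormalized counts of reads for each gene, made by the authors. Per the labels, poly(A) RNA was made into libraries with a stranded kit; the submitters' processing notes name STAR 2.7.3a, RSEM 1.3.0 and GRCm38, the study's methods name featureCounts, and use of strand in counting is not given in the sources used here. The study tested with DESeq2. Here filterByExpr was applied (minimum count 10), TMM factors were computed, and edgeR 4.0.16 (R 4.3.3) fitted a quasi-likelihood model with 1 mean per group, all 12 libraries and no covariate. Calls needed an adjusted p under 0.05 over 13177 genes in each of 13 contrasts. Intervals are 95%. An exact permutation of 2 against 2 libraries cannot go below p 0.333.

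Partners were no copies: chi-square per degree of freedom was 1.68 to 8.63. The members and lists were chosen with earlier results of these data known. Named list genes were at most 4 per list, those with the largest called change in Oxali at a mean of at least 1 log2 CPM, plus Map3k14, Ikbkb, Chuk and Ikbkg; Tnfrsf13c, Cd40, Tnf, Ccl20, Il6, Ccl2, Psd and Gbp2 were added after their values were seen. Exon lengths came from GENCODE M21 (GRCm38), with the exons of all transcripts of a gene merged. The test was checked on simulated counts of 12416 genes, in which 96 changed by 1 and 97 by 2 on the log2 scale. It recovered 84.4% and 96.9% of them. With so few genes changed, the check cannot speak to the scaling where 8911 genes were called, as in Oxali against Ctrl. Alternatives were RLE, upper-quartile scaling, no filter, a mean of 50 counts, DESeq2 1.42.0, only the groups compared, the replicate block, a length and GC correction, and each library left out. Some luminal markers are not reported here.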

Additional observations from a re-analysis of the deposited data

Results flagged for a closer look

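Of the pathway list genes named above, 3 had a change with interferon γ that differed with Oxali present, by the interaction test of edgeR, and none of the 10 members did (Gbp2 and other genes outside the lists are not covered). Tnip1 at 2000 pg had an interaction of 0.298 on the log2 scale (SE 0.064, adjusted p 0.0147): it was lower in IFN2000 (44.9 and 42.5 CPM) than in Ctrl (52.2 and 51.3 CPM), and measured 79.4 and 81.4 CPM in Oxali and 83.7 and 83.3 CPM in Combo2000. The call held in 11 of 16 other settings, and the interaction was 0.33 (adjusted p 0.0168) without IFN2000 replicate 2. Atm at 2000 pg had an interaction of 0.552 (SE 0.103, adjusted p 0.00445), with 95.4 and 88.1 CPM in Ctrl, 74.4 and 88.6 in IFN2000, 77.0 and 83.4 in Oxali and 112 and 96.0 in Combo2000; it held in 13 of 16. Csf1 at 200 pg had an interaction of 0.448 (SE 0.086, adjusted p 0.0140), with 15.8 and 16.6 CPM in Ctrl, 17.7 and 17.9 in IFN200, 86.1 and 92.2 in Oxali and 136 and 132 in Combo200; it held in 9 of 16. The low Atm value of IFN2000 belongs to replicate 2, the library with blood cell transcripts, and without it the Atm interaction was 0.42 (adjusted p 0.0164).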

How the results depend on the processing

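Of 1640 values of the members under other settings, 1578 stayed on their side of the threshold, 39 lost a call, 23 gained one and none reversed. Numbers of members called moved as follows. In IFN2000 against Ctrl, 2 calls became 1 with RLE, upper-quartile scaling, DESeq2, the length and GC correction and the replicate block, and 1 to 2 with a library left out. In Combo200 against Oxali, 1 became 2 with no filter, with only the groups compared and with the length and GC correction, 0 with DESeq2 and the replicate block, and 0 to 1 with a library left out. In Combo2000 against Oxali, 2 became 5 with no filter, 4 with the length and GC correction, and 1 to 2 with a library left out. In IFN2000 against IFN200, 3 became 1 with the replicate block and 1 to 3 with a library left out. The interactions, with 0 calls, gave 1 at 2000 pg with no filter and 0 to 1 at either dose with a library left out. The causes were not tested.

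The replicate number was not shown to pair the samples: correlations of deviations between groups that share numbers ran from -0.239 to 0.105 over 6 pairs of groups. Under the block, the calls lost were Rel in IFN2000 against Ctrl (-0.21, adjusted p 0.186) and against IFN200 (-0.25, adjusted p 0.0857), Nfkbia in IFN2000 against IFN200 (0.17, adjusted p 0.0534) and Nfkbie in Combo200 against Oxali (0.37, adjusted p 0.172), and Tnfaip3 in Combo2000 against Oxali was gained (0.20, adjusted p 0.0375). Apart from the fits with a library left out, counts over all genes that moved by over 1.5 times were these. With the replicate block, IFN2000 against Ctrl went from 2221 to 1071, IFN2000 against IFN200 from 2943 to 1588, Combo200 and Combo2000 against Oxali from 241 to 142 and from 574 to 331, and the interaction at 200 pg from 92 to 48. With no filter IFN200 against Ctrl went from 15 to 102, Combo200 against Oxali to 372 and the interactions to 262 and, from 359, to 785. With only the groups compared IFN200 gave 48 and the interaction at 200 pg 172; the length and GC correction gave 26 for IFN200. DESeq2 gave 373 for Combo2000 against Oxali and 217 for the interaction at 2000 pg. With a library left out, 1 library remains in its group. Such fits also moved counts of several comparisons by over 1.5 times, more often down than up, and these counts are not listed.

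Low counts limit Nfkbie (1.45 to 1.69 CPM without Oxali) and Relb (3.26 to 4.88 CPM).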
